A study of Mus musculus with 8 samples.

Results

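Chemokine receptor genes encode the receptors with which leukocytes read gradients of chemokines. Of these, 9 (Ccr1, Ccr2, Ccr6, Ccr7, Ccr9, Cxcr2, Cxcr3, Cxcr6 and Cx3cr1) were followed by symbol through cells isolated as mouse periosteum. They are 9 of the 32285 genes in the count matrices. Cells came from left femurs and tibias of C57BL/6J male mice, 16 weeks old, kept on a normal diet (ND) or a high-fat diet (HFD). The paper describes digesting the dissected bones to obtain periosteal cells. Their RNA was read cell by cell in droplets, with each molecule counted by a unique molecular identifier (UMI). The labels list 4 samples for each diet, but each diet was deposited as 1 pooled matrix in which no cell carries the name of a mouse. ND and HFD are therefore compared as 2 libraries without a test, and all intervals (95%) cover counting error only.

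These receptors couple to G proteins, and a cell that carries one moves toward the source of its chemokine. In blood-forming and bone tissue Cxcr2 is known for the release of neutrophils, Ccr2 for the exit of inflammatory monocytes, and Cx3cr1 for the crawling of patrolling monocytes along vessels. Ccr7 guides lymphocytes and dendritic cells into lymphoid organs, Ccr9 and Ccr6 are known from gut homing and mucosal immunity, and Cxcr3 and Cxcr6 mark effector and tissue-resident T cells.

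After filtering (more than 500 and fewer than 8000 detected genes, under 20% mitochondrial UMIs) 6029 ND and 6224 HFD cells remained, with a median of 4610 and 4823.5 UMIs per cell. The libraries shared 15 cell barcodes. They differed in genes known to respond to tissue dissociation: 14 immediate-early genes summed to 11533 UPM in ND and 8535 UPM in HFD, and 8 heat-shock genes to 5897 and 3163 UPM. Clusters were named from marker genes into 18 classes of at least 50 cells, each written as "-like" on first use and by its short name after that, and 365 ND (6.05%) and 302 HFD (4.85%) cells stayed unnamed. The classes include precursors of B cells and of neutrophils, and whether cells of the bone marrow were among those isolated was not tested. Chemokine and chemokine receptor genes were left out of the clustering, so that no class was built from the genes described here. Levels are UMIs per 1000000 UMIs of a class (UPM), and since the UMIs are counted at one end of the transcript, they were not scaled by gene length. A share of cells with a UMI depends on depth, and is therefore also given after thinning each cell to 1000 UMIs.

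On chromosome 9, 4 neighbouring members had 4 different leading classes. Ccr9 (chr9:123678439-123784330, plus strand), Cxcr6 (chr9:123806475-123811760, plus strand), Ccr1 (chr9:123962124-123968692, minus strand) and Ccr2 (chr9:124101950-124113557, plus strand; mm10, GENCODE M21) lie within 435 kb, a stretch that holds 7 chemokine receptor genes. Ccr9 was highest in plasmacytoid dendritic-like cells, Cxcr6 in T-like cells, Ccr1 in mature neutrophil-like cells and Ccr2 in monocyte-like cells. Ccr9 also overlaps Gm17200 on its own strand and Slc6a20a and Lztfl1 on the other, and Cxcr6 lies inside the span of Fyco1 on the other strand, so that reads there may be less certain than those of Ccr1 and Ccr2, which overlap no other gene. The starts of these 4 genes (250 bases before to 50 after the transcript start, RefSeq, GRCm38.p6) are shown because neighbours with such different expression can be compared base by base, and the start of Cxcr2 is added as the second gene led by neutrophils. Capitals mark GAGGAA or its reverse complement TTCCTC, a core recognised by PU.1, a transcription factor of myeloid cells.
Ccr9, chr9:123766961-123767260, plus strand: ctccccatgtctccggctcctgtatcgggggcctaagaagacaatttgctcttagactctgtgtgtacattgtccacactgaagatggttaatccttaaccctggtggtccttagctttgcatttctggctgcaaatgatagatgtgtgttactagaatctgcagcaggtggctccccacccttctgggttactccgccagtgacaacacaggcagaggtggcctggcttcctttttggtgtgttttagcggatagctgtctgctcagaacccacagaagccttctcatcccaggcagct
Cxcr6, chr9:123806227-123806526, plus strand: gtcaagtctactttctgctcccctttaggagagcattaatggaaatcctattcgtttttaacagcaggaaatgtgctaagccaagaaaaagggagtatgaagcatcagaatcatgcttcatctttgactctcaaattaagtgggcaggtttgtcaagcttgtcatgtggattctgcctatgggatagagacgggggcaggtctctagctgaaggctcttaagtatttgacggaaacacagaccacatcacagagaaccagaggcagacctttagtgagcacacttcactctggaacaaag
Ccr1, chr9:123968643-123968942, minus strand: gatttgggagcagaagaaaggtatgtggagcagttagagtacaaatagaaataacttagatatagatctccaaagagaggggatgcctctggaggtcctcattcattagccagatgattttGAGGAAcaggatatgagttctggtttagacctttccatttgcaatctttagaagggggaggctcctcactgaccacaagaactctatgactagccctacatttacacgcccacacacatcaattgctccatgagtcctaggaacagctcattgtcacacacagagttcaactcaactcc
Ccr2, chr9:124101933-124102232, plus strand: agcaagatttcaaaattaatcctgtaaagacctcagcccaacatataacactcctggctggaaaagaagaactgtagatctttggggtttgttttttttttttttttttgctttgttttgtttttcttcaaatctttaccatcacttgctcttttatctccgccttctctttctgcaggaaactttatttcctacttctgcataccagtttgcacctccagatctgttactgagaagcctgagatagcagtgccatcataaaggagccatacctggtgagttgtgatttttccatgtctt
Cxcr2, chr1:74153744-74154043, plus strand: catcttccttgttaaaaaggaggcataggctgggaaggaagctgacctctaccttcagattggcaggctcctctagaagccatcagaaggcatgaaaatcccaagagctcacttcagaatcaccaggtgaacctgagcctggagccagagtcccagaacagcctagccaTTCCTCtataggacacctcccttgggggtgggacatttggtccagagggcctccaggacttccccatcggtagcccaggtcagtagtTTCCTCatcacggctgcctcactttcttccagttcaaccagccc
The motif, searched on both strands, occurred 1 time in the Ccr1 window and 2 times in the Cxcr2 window, and not in those of Ccr9, Cxcr6 and Ccr2. Over all members it was in 4 of 9 windows of 8 genes (Ccr1, Cxcr2, 1 of the windows of Ccr6, and Cxcr3), and over all promoters of the table in 9289 of 32851 (28.3%). Of these, Ccr6 was led by B cells and Cxcr3 by T cells. No window of Cx3cr1 held it, and Ccr7 had no entry.

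The leading classes of the 9 genes, those with the highest level, were spread over neutrophils, monocytes, B cells, T cells and plasmacytoid dendritic cells. Ccr9 was the most concentrated, with 96.0% of its UPM summed over the 18 classes in plasmacytoid dendritic cells (532 UPM), followed by Cxcr6 in T cells (85.2%, 76.1 UPM), Ccr6 in mature B-like cells (81.0%, 40.9 UPM) and Cxcr2 in mature neutrophils (61.8%, 400.2 UPM). These 4 of 9 genes had at least 50% of their summed level in a single class, and over all 15840 genes with enough UMIs 17.5% did. The other 5 had less than 50% in any single class. Ccr1 had 49.2% in mature neutrophils (929 UPM), Cxcr3 47.0% in T cells (44.3 UPM), Ccr2 43.6% in monocytes (502 UPM), Cx3cr1 41.5% in patrolling monocyte-like cells (310.3 UPM) and Ccr7 41.2% in mature B cells (789.8 UPM).

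**Figure D1:**
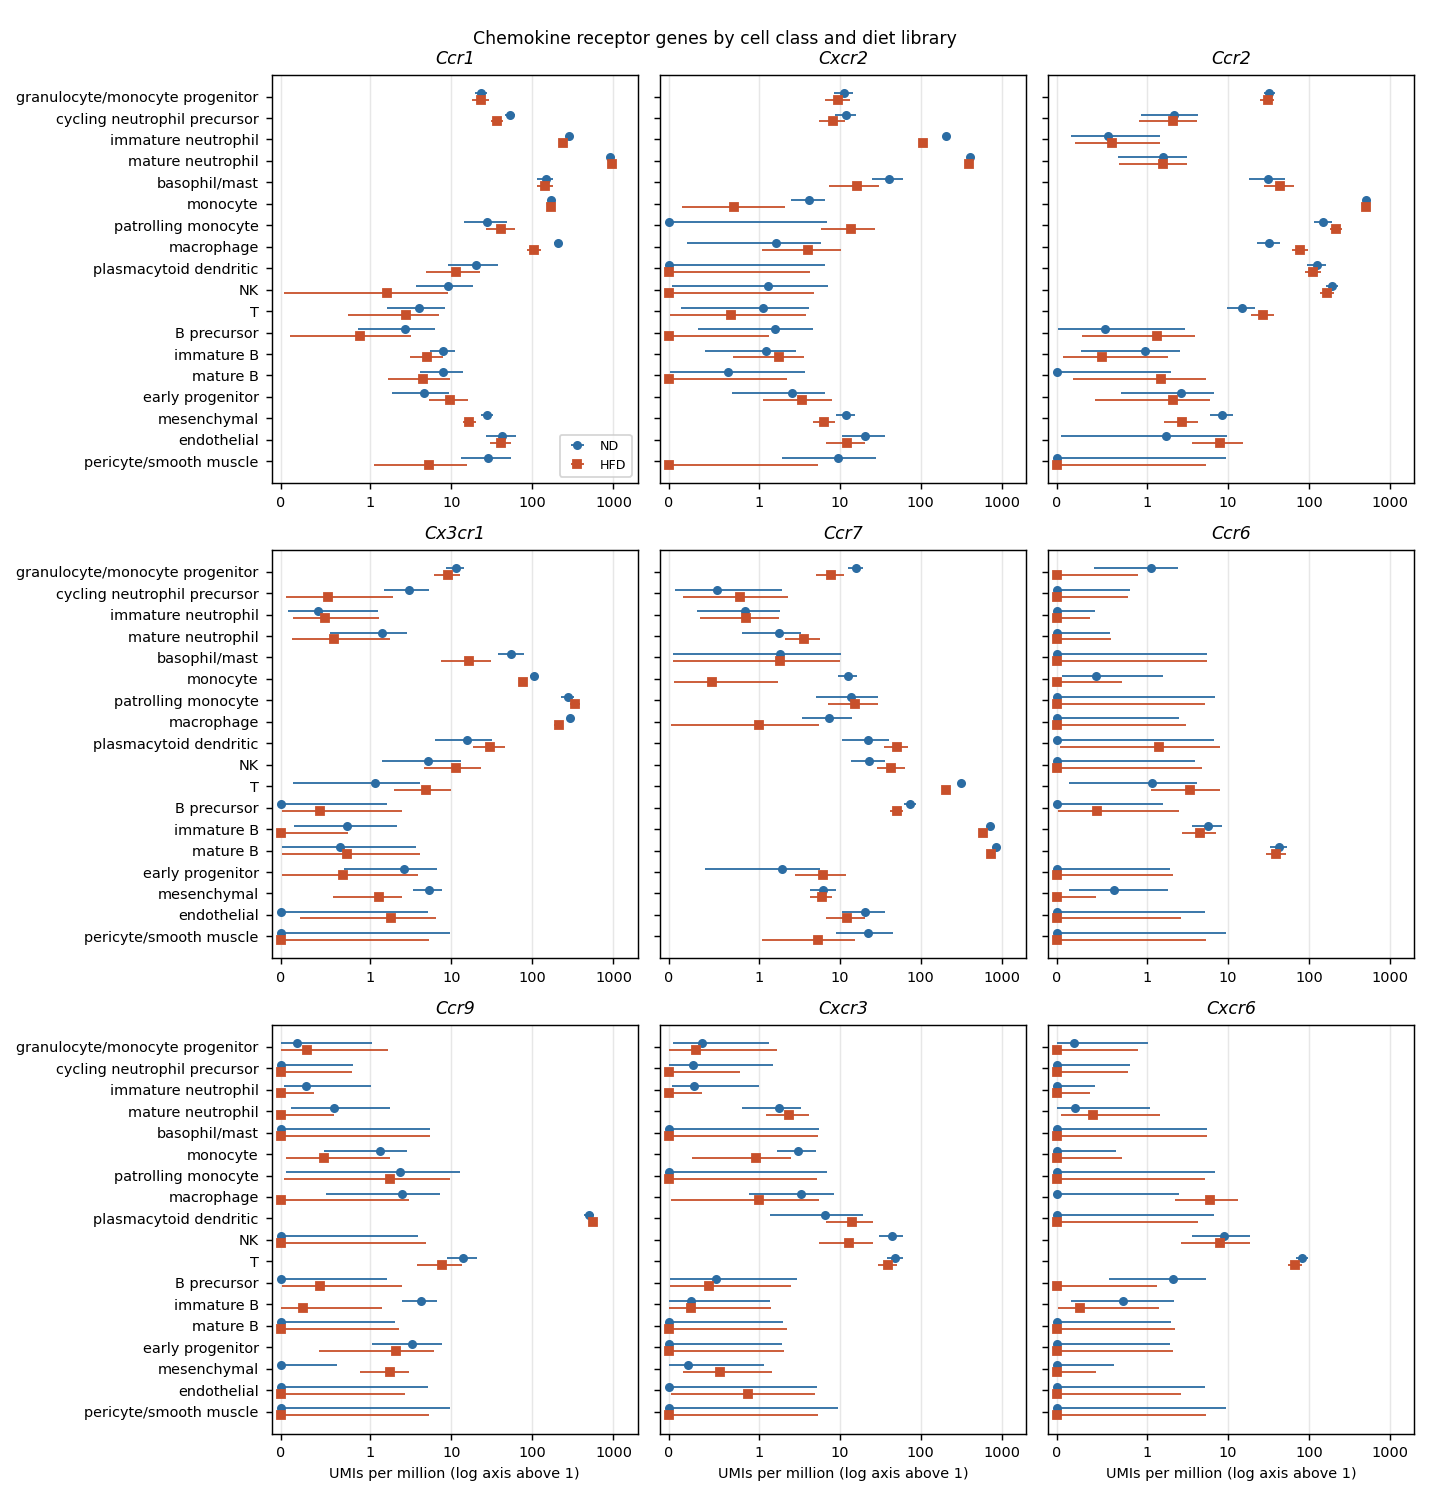
Level of each receptor gene in UPM (axis logarithmic above 1) in each of the 18 cell classes in ND (circles) and HFD (squares), with exact 95% Poisson intervals, or up to 3 counts where none was seen. Ccr9, Cxcr6 and Ccr6 stand high in 1 class each, while Ccr1 and Ccr7 are spread over many.

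Over both libraries the leading class stood above the next one in all 9 genes beyond counting error, most narrowly for Ccr7 (mature over immature B-like cells, log2 ratio 0.28, 0.21 to 0.36), Cx3cr1 (patrolling monocytes over macrophage-like cells, 0.28, 0.07 to 0.48) and Cxcr3 (T over NK-like cells, 0.56, 0.05 to 1.09). In ND alone Cx3cr1 was higher in macrophages than in patrolling monocytes (293 and 272 UPM), and the intervals of Cxcr3 in T and NK cells (48.5 and 43.8 UPM) overlapped. Further down the order several neighbours could not be told apart, with intervals that include 0. For Ccr1 these were monocytes, macrophages and basophil/mast-like cells (169, 161 and 144 UPM), and for Ccr2 patrolling monocytes and NK cells (188 and 182 UPM). Cxcr6 had no UMI in 11 of the 18 classes and Ccr6 none in 10, whereas Ccr1 and Ccr7 had at least 1 UMI in every class. Their totals in named cells were far apart, with 274 and 178 UMIs for Cxcr6 and Ccr6 and 16381 and 9025 for Ccr1 and Ccr7. The numbers of empty classes are therefore not a like comparison of breadth.

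In droplet data free RNA gives UMIs also in cells that do not express a gene, so each share of cells with a UMI is set beside that in a class which should lack the receptor. Ccr1 was seen in 91.2% of mature neutrophils (median depth 3241 UMIs) and in 2.18% of mature B cells (median depth 3771), and Cxcr2 in 66.6% and 0.136% of the same cells. Read the other way, Ccr7 was seen in 83.5% of mature B cells and 0.902% of mature neutrophils. For Ccr6 these shares were 14.6% and 0 of 2883 cells. Ccr2 was seen in 93.8% of monocytes (median depth 11758) and 0.555% of mature neutrophils, and Cx3cr1 in 68.3% of patrolling monocytes (median depth 5609) and 0.312% of mature neutrophils. Ccr9 was seen in 72.5% of plasmacytoid dendritic cells (median depth 10054.5), and Cxcr3 and Cxcr6 in 21.2% and 20.3% of T cells (median depth 6634.5), against 0.104%, 0.624% and 0.104% of mature neutrophils. Thinned to 1000 UMIs, the shares in the leading class were 59.2% for Ccr1, 49.5% for Ccr7, 39.3% for Ccr2, 35.3% for Ccr9, 31.5% for Cxcr2, 30.5% for Cx3cr1, 5.84% for Cxcr3, 5.41% for Cxcr6 and 4.24% for Ccr6.

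Ccr1, a receptor of inflammatory CC chemokines, and Cxcr2, the receptor of the neutrophil-attracting CXC chemokines, were both higher in mature neutrophils than in their precursors. In mature neutrophils Ccr1 was at 899 UPM (873.5 to 926) in ND and 959 UPM (932 to 986) in HFD, and Cxcr2 at 404 and 397 UPM. In immature neutrophil-like cells Ccr1 was at 284 and 238 UPM, and Cxcr2 at 202 UPM (192 to 213) in ND and 106 UPM (99.4 to 114) in HFD. The levels of mature neutrophils thus lay close together in the libraries, while Cxcr2 in immature neutrophils was higher in ND. A subcluster described below held 269 of the 807 ND cells of this class and 21 of the 831 HFD cells. Without it the levels lay close together. As its Cxcr2 was high, leaving it out had to lower the ND level, and this step was chosen after seeing the data. In cycling neutrophil precursor-like cells Ccr1 was at 44.9 UPM and Cxcr2 at 10.0 UPM over both libraries, and in granulocyte/monocyte progenitor-like cells at 23.2 and 10.6 UPM.

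Among mature and immature neutrophils both receptors were lower where genes of secondary granules, which are made early in neutrophil development, were higher. Cells of both classes were put into 5 bins by the summed level of Camp, Ngp, Ltf and Lcn2. These 4 genes were also markers used to name immature neutrophils, so that the bins in part repeat the division of the 2 classes. From the bin with the lowest granule gene level to the highest, Ccr1 was at 1063, 1021, 840.3, 531 and 161 UPM. Cxcr2 was at 462, 461, 409, 309.6 and 63.5 UPM in the same bins. Bins 1 and 2 had overlapping intervals, and both genes were lowest in bin 5. In bin 5 the 4 granule genes took a median of 137221 UPM of the cell, against 387 UPM in bin 1, and the part of this share in the lower UPM of other genes was not tested.

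**Figure D2:**
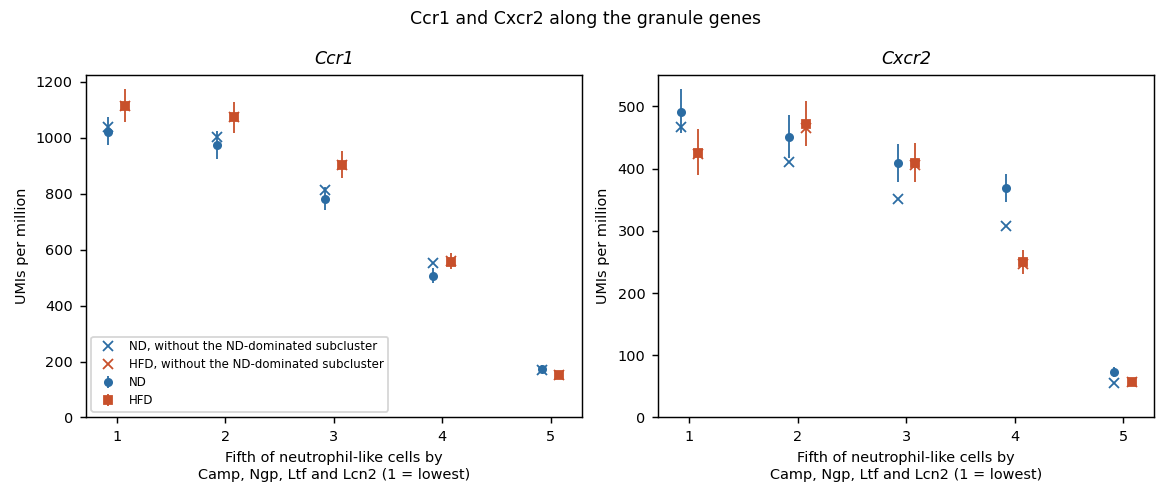
Ccr1 and Cxcr2 in UPM along 5 bins of the summed level of Camp, Ngp, Ltf and Lcn2, by library, with exact 95% Poisson intervals, and as crosses without the subcluster of mostly ND cells described next. Both genes are lowest in bin 5, and Cxcr2 in bin 4 stands at 368 UPM in ND and 249 UPM in HFD, and without that subcluster at 308 and 247 UPM.

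Subclusters of neutrophils gave the same order. A mature subcluster of 1163 cells led by Il1r2 and Il1b had 1130.4 UPM of Ccr1 and 475 UPM of Cxcr2, and the lowest immature one 65.8 and 17.9 UPM. One immature subcluster stood apart: 269 of its 290 cells were from ND, and it had 420.2 UPM of Ccr1 and 516 UPM of Cxcr2. Its name is uncertain, since its Cxcr2 was above that of the mature subcluster of 1163 cells. Its ND cells lay in all 5 granule gene bins (30, 42, 54, 95 and 48 cells, from bin 1 to bin 5). It was led by Retnlg, Ngp, Ltf and G0s2, and in ND its summed level of 14 immediate-early genes was 26241 UPM, against 3956 UPM in the other immature neutrophils of ND. Its 8 heat-shock genes summed to 2850.1 UPM, against 650.4 UPM. Without this subcluster Cxcr2 in immature neutrophils was at 104 UPM in ND and 101 UPM in HFD (log2 ratio −0.04), where it had been −0.93 (−1.05 to −0.81), and Ccr1 at 246 and 232 UPM. Along the granule gene bins a difference was left in bin 4 without the subcluster. Cxcr2 was there at 308 UPM (285 to 333) in ND and 247 UPM (228 to 267) in HFD. In bins 2 and 3 Cxcr2 was then lower in ND, at 411 and 465 UPM and at 351 and 406 UPM, with overlapping intervals. The part of dissociation in the higher Cxcr2 of ND was not tested.

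In macrophages Ccr1 was at 207 UPM (182 to 234) in ND and 104.6 UPM (85.5 to 127) in HFD, with a UMI in 64.4% and 38.2% of cells. Its log2 ratio of HFD over ND was −0.98 (−1.33 to −0.65), just under 2-fold. In monocytes the level was 167 UPM in ND and 171 UPM in HFD. Basophils and mast cells had 145 and 143 UPM. In cycling neutrophil precursors Ccr1 was at 53.1 and 37.0 UPM (log2 ratio −0.52, −0.85 to −0.20), and in patrolling monocytes at 27.6 and 41.3 UPM (0.55, −0.48 to 1.71). Without a subcluster of mostly ND cells described below, monocytes were at 201 and 179.7 UPM (−0.16, −0.32 to −0.01).

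Ccr2, the receptor of monocyte chemoattractants, and Cx3cr1, the receptor of fractalkine, were seen in both monocyte classes but were higher in different ones. In monocytes Ccr2 was at 504 UPM (484 to 525) in ND and 499 UPM (478 to 521) in HFD, with a UMI in 95.8% and 91.6% of cells. In patrolling monocytes it was at 149.7 and 217 UPM. Cx3cr1 ran the other way, at 103 and 77.4 UPM in monocytes and at 272 and 339 UPM in patrolling monocytes. Macrophages had much Cx3cr1 (293 and 210.2 UPM) and little Ccr2 (32.0 and 78.5 UPM). An unnamed subcluster of 87 cells with macrophage markers, described in the closing section, was not counted among them and had 353 UPM of Ccr2. Ccr2 was also found outside the monocytes, at 193 and 169 UPM in NK cells and 124 and 111 UPM in plasmacytoid dendritic cells.

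Monocytes were not uniform in either gene. They were put into 4 bins by their level of Ly6c2, the marker of inflammatory monocytes. From the lowest to the highest Ly6c2, Ccr2 was at 626, 579, 454 and 402 UPM. Cx3cr1 was at 150.4, 126, 63.2 and 50.1 UPM, and Ccr1 at 113, 168, 182 and 197 UPM. Over both libraries Ccr2 and Cx3cr1 were thus lower where Ly6c2 was higher, and Ccr1 was higher. In ND alone Ccr2 was at 655, 539, 435 and 362 UPM. In HFD alone it was at 576, 665, 473 and 425 UPM, and Cx3cr1 at 131 and 142 UPM in bins 1 and 2. Both were thus highest in bin 2 in HFD, with intervals that overlap those of bin 1. Median depth was 10365 UMIs in bin 1 and 13051 in bin 4, and its part was not tested. Bin 1 held 99 ND and 59 HFD cells, and bin 4 held 54 and 105. A subcluster of mostly ND cells and one of 172 cells led by cell-cycle genes, both described next, were kept in the bins. Ly6c2 was itself among the leading genes of the second, and the part of either was not tested.

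**Figure D3:**
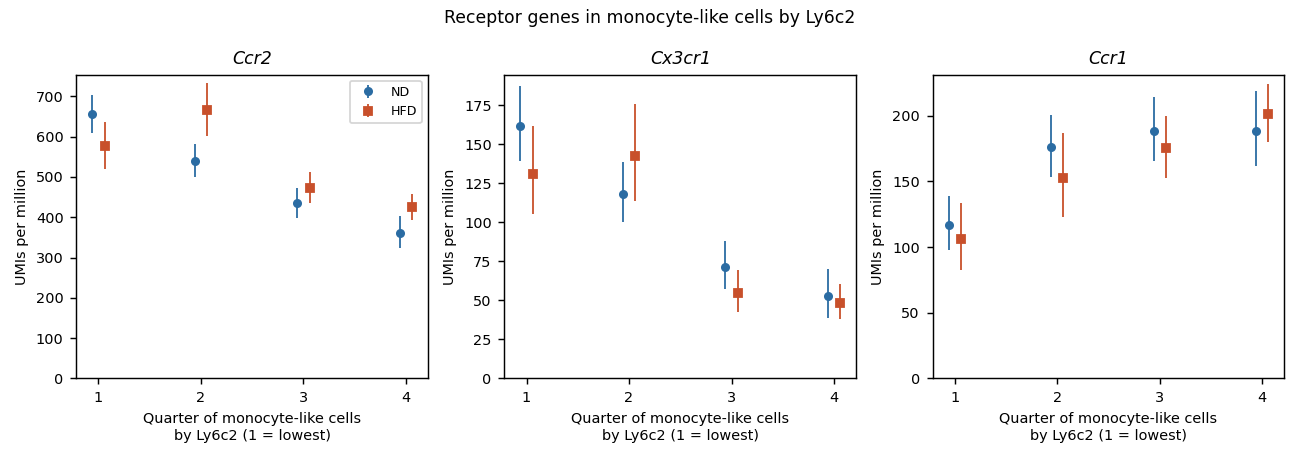
Ccr2, Cx3cr1 and Ccr1 in UPM along 4 bins of Ly6c2 in monocytes, by library, with exact 95% Poisson intervals. Ccr2 and Cx3cr1 are lower in bin 4 than in bin 1, and Ccr1 is higher.

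The monocyte subclusters showed the same differences. The main one (352 cells) had 546 UPM of Ccr2 and 106 UPM of Cx3cr1, and one led by cell-cycle genes had 323 and 32.0 UPM. Another of 109 cells, 89 of them from ND, had 853 UPM of Ccr2 and 207 UPM of Cx3cr1 but only 49.9 UPM of Ccr1. Its ND cells also had 33900.2 UPM of immediate-early genes and 23675 UPM of heat-shock genes, against 8954 and 4547 UPM in the other ND monocytes. Without it Ccr2 in monocytes was at 401 UPM in ND and 474 UPM in HFD, and its log2 ratio moved from −0.02 (−0.10 to 0.07) to 0.24 (0.14 to 0.34). That of Cx3cr1 moved from −0.42 to −0.09. In patrolling monocytes, a larger subcluster of 127 cells held Ccr2 at 231 UPM beside 303 UPM of Cx3cr1, and a smaller one of 37 cells had 28.1 UPM of Ccr2 and 337 UPM of Cx3cr1.

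Ccr7 appeared along the B lineage from its precursors on, and Ccr6 later. B precursor-like cells had 73.0 UPM of Ccr7 in ND and 50.6 UPM in HFD, immature B cells 709.9 and 586 UPM, and mature B cells 844 and 728 UPM. The level was higher in ND at each of these stages (log2 ratios −0.53, −0.28 and −0.21). Heat-shock genes were also higher in ND in these cells, at 15447 and 7692 UPM in mature B cells, and their part was not tested. Ccr6, which is known from B cells of mucosal lymphoid tissue, was at 42.3 and 39.3 UPM in mature B cells and at 5.65 and 4.53 UPM in immature ones. For Ccr6 both ratios had intervals that include 0.

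Subclusters resolved the step. Ccr7 was at 38.8 and 107 UPM in the 2 precursor subclusters, at 164 UPM in an early immature one led by Vpreb3, and at 731 and 869 UPM in the large immature ones. The mature subclusters had 799 and 757 UPM, between these values. Ccr6 had no UMI in the early immature subcluster, which allows up to 1.72 UPM. It was at 7.34 and 6.26 UPM in the large immature subclusters and at 40.6 and 41.7 UPM in the mature ones. Ccr7 was thus near its final level in the large immature subclusters, where Ccr6 was still low. One small immature subcluster with 479 UPM of Ccr7 had 72 of its 77 cells from ND, and without it the log2 ratio in immature B cells was −0.30 (−0.38 to −0.22).

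Ccr9, the receptor of Ccl25, marked plasmacytoid dendritic cells in both libraries. Its level there was 499 UPM (436 to 569) in ND and 553 UPM (499.7 to 611) in HFD, in 32 of 42 and 42 of 60 cells. The smaller of the 2 subclusters of these cells, with 21 cells, had 741 UPM (629 to 868), and the larger 486 UPM (443 to 533). T cells came next with 13.7 UPM in ND and 7.56 UPM in HFD. Over both libraries the log2 ratio of plasmacytoid dendritic over T cells was 5.61 (5.12 to 6.14). Mature neutrophils had 0.297 UPM of Ccr9, from 3 UMIs.

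The T cells carried 3 of the receptors, and Ccr7 was highest in another subcluster than Cxcr3 and Cxcr6. Ccr7 was at 311 UPM (285 to 338) in ND and 205 UPM (183 to 230.1) in HFD, Cxcr6 at 82.8 and 68.0 UPM, and Cxcr3, the receptor of interferon-induced chemokines, at 48.5 and 39.2 UPM. A subcluster of 84 cells led by Cd8b1 and Lef1, genes of naive CD8 T cells, had 607 UPM of Ccr7 and only 3.41 UPM of Cxcr3. A subcluster of 106 cells had 253 UPM of Cxcr6 (213 to 298), 63.7 UPM of Cxcr3 and 115 UPM of Ccr7. Cxcr6 in the other 3 T subclusters was between 20.5 and 45.1 UPM. The subcluster with the highest Cxcr6 thus also had the highest Cxcr3, and Ccr7 was highest in another. Whether Cxcr3 in the first of these stood above the next subcluster beyond counting error was not tested. Another subcluster of 147 cells, 107 of them from ND, had 337 UPM of Ccr7, and in ND its heat-shock genes summed to 24799 UPM, against 4304 UPM in the other T cells. The part of this subcluster in the Ccr7 of ND was not tested.

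A grouping by coreceptor UMIs gave a similar picture. Cells with a Cd8a or Cd8b1 UMI and no Cd4 UMI (216 cells) had 361 UPM of Ccr7, 38.9 UPM of Cxcr3 and 53.0 UPM of Cxcr6. Cells with a Cd4 UMI and no Cd8 UMI (30 cells) had 197, 57.2 and 121 UPM. In this group Cxcr6 rested on 18 UMIs in 3 ND cells (176 UPM) and 1 UMI in HFD (18.2 UPM), and Ccr7 was at 273 and 54.5 UPM. Cells with only a Trdc UMI, the gamma delta chain (61 cells), had 141, 51.8 and 113 UPM. In CD8 cells Ccr7 was at 421 UPM in ND and 279 UPM in HFD, and in those with only Trdc at 189.8 and 59.0 UPM. In the 153 cells with none of these UMIs it was at 159 and 169 UPM. The higher Ccr7 of ND T cells was therefore not seen in this last group, which made up 29.1% of ND and 38.6% of HFD T cells.

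**Figure D4:**
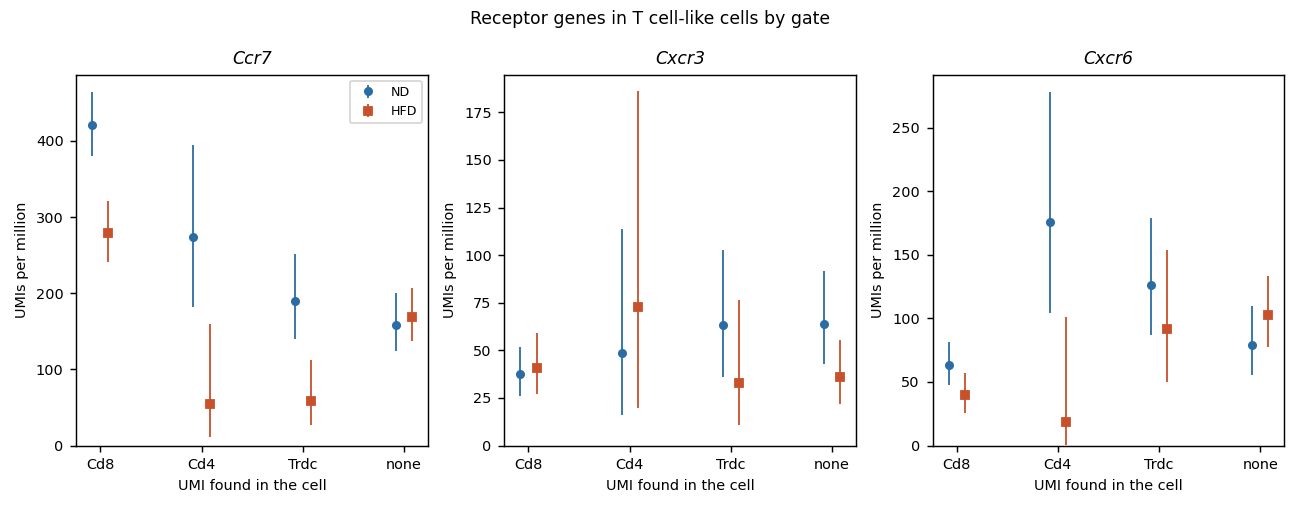
Ccr7, Cxcr3 and Cxcr6 in UPM in T cells grouped by UMIs of Cd4, Cd8a or Cd8b1, and Trdc, by library, with exact 95% Poisson intervals. Ccr7 is highest in the CD8 group of ND at 421 UPM. Cxcr6 is lowest in the CD8 group in ND at 63.0 UPM, and in the Cd4 group in HFD at 18.2 UPM, from 1 UMI.

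NK cells shared Cxcr3 with T cells and Ccr2 with monocytes. Their Cxcr3 was at 43.8 UPM in ND (34 UMIs in 23 of 133 cells) and at 12.9 UPM in HFD (8 UMIs in 8 of 106 cells). Cxcr6 was at 9.01 and 8.05 UPM, from 2 cells in each library. Ccr2 differed between the 2 NK subclusters, with 241 UPM (199 to 289) in the smaller and 152 UPM (127 to 179) in the larger.

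Pairs of receptors were also counted in the same cells. Among mature neutrophils with a Ccr1 UMI 67.5% also had one of Cxcr2, and 57.3% of those without. After thinning the shares were 32.7% and 29.9%, with overlapping intervals. Among monocytes with a Ccr2 UMI 59.3% had Cx3cr1 and 23.1% of the 39 without, at median depths of 11940.5 and 7032 UMIs. Thinned, these shares were 14.2% (10.1 to 19.2%) and 7.59% (5.14 to 10.7%), with intervals that overlap slightly. In patrolling monocytes the order before thinning was reversed, with Ccr2 in 28.6% of cells with Cx3cr1 and in 48.1% of those without. Thinned, Ccr2 was seen in 6 of 50 and 16 of 114 cells, so that no order could be read there.

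In T cells Ccr7 was seen in 31.9% of cells with Cxcr6 and 49.2% of those without, and in 30.6% of cells with Cxcr3 and 49.7% of those without. After thinning, the first pair of shares was 3 of 25 cells and 21.3%, with overlapping intervals. Of the second pair, none of 27 cells with Cxcr3 had Ccr7, which allows a share of up to 11.1%, against 22.1% of the 435 without. Cxcr3 was seen in 30.9% of T cells with Cxcr6 and in 18.75% of those without. Thinned, it was seen in 0 of 25 cells with Cxcr6, which allows up to 12.0%, and in 6.18% of those without, so that no order could be read. In NK cells 21.7% of those with Ccr2 had Cxcr3 and 6.02% of those without. The median depth of these groups was 6391 and 4411 UMIs, and thinned to 1000 UMIs only 2 of 33 and 5 of 206 cells had Cxcr3. In macrophages Ccr2 was seen in 25.3% of cells with Cx3cr1 and in 5.95% of those without, at median depths of 12609 and 9801.5 UMIs. After thinning these shares were 9.68% and 4.73%, with overlapping intervals.

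Between the diets, 55 of the 162 pairs of a receptor and a class had at least 20 UMIs, and most of these lay within 2-fold. Their median log2 ratio of HFD over ND was −0.25, against 0.02 over all pairs of a gene and a class, and 40 of the 55 were below 0. Past 2-fold, 3 pairs were higher in HFD, against 2.03% of all pairs of genes and classes, and 7 were lower, against 2.57%. As the pairs share genes, cells and 2 libraries, these counts describe the libraries and are not a test.

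Of the 3 higher pairs, Ccr2 in macrophages had a log2 ratio of 1.28 (0.72 to 1.89). It rested on 39 UMIs in 14 of 90 ND cells and 78 UMIs in 15 of 89 HFD cells, so that the shares of cells with a UMI lay close together, at 15.6% (8.77 to 24.7%) and 16.9% (9.75 to 26.3%). With classes taken from the markers of each single cell the log2 ratio was 0.92, short of 2-fold. Without the cells of the top 5% of doublet scores it was 2.44, on 14 and 67 UMIs. The unnamed subcluster with macrophage markers was not part of this pair. Ccr7 in plasmacytoid dendritic cells (1.14) had 17 of its 36 HFD UMIs in 1 cell, and its log2 ratio was 0.01 without the cells of the top 5% of doublet scores and −0.16 with classes from single-cell markers. Ccr1 in early progenitor-like cells (1.04) rested on 2 and 3 cells, and with classes from single-cell markers only 2 and 1 UMIs were left (−0.85).

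Of the 7 lower pairs, Cxcr3 in NK cells (−1.70, −3.09 to −0.63) was spread over 23 ND cells, with no more than 3 UMIs in any, and after thinning 4 and 3 UMIs were left (−0.04). Its log2 ratio was −1.61 with classes from single-cell markers and −1.54 without the top 5% of doublet scores. Ccr7 in monocytes (−4.41) came from 58 UMIs in 16 ND cells and 2 UMIs in 2 HFD cells, and Cxcr2 in monocytes (−2.34) from 19 and 3 UMIs. With classes from single-cell markers Ccr7 had 53 and 19 UMIs (−1.44). After thinning Cxcr2 had 0 and 2 UMIs (2.50), which turned its direction. Without the monocyte subcluster of mostly ND cells Cxcr2 had 17 and 2 UMIs (−2.97), under the minimum of 20. Ccr2 and Cx3cr1 in mesenchymal-like cells (−1.60 and −1.97) were at levels of 8.38 and 5.24 UPM in ND, in 8 and 7 of 408 cells. When the cells with the top 5% of doublet scores were removed, Ccr2 kept 3 of its 40 ND UMIs and 0 in HFD, and Cx3cr1 kept 0 of 25 in ND and 3 in HFD, which turned its direction. The same removal left 13 of the 58 ND UMIs of Ccr7 in monocytes (−2.38). In basophils and mast cells Cxcr2 (−1.26) rested on 22 and 9 UMIs. Cx3cr1 (−1.70) there had 29 of its 30 ND UMIs in 1 cell, and without the highest cell of each library the log2 ratio was 0.72.

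**Figure D5:**
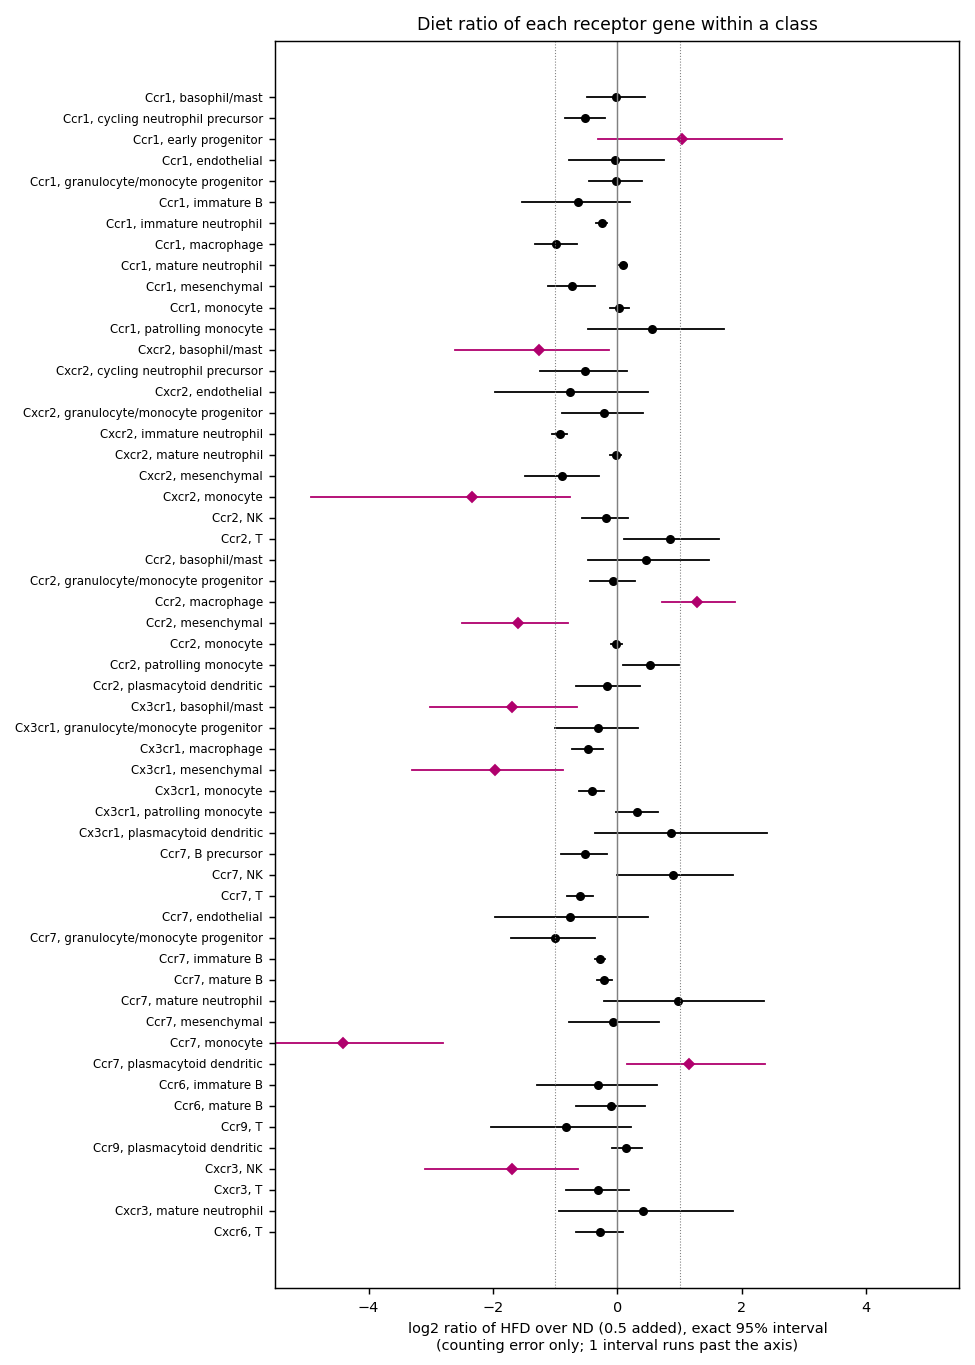
Log2 ratio of HFD over ND for each of the 55 pairs of a receptor gene and a cell class with at least 20 UMIs, with exact 95% intervals for counting error; 1 interval runs past the axis. Dotted lines mark 2-fold and diamonds the pairs past it, of which 3 are higher and 7 lower in HFD.

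The ligands of these receptors were read across the same cell classes. Ccl2 and Ccl7, ligands of Ccr2, were highest in macrophages (740.2 and 629.8 UPM), as were Ccl8 and Ccl12 (38.0 and 41.1 UPM). Of the ligands of Ccr1, Ccl6 was highest in mature neutrophils themselves (4124 UPM), Ccl3 and Ccl9 in basophils and mast cells (3562 and 716 UPM) and Ccl5 in NK cells (13862 UPM). Of the ligands of Cxcr2, Cxcl1 was highest in mesenchymal cells (577 UPM) and Cxcl2 in mature neutrophils (6061 UPM). Cxcl3 and Cxcl5 were low, at 42.5 UPM in mature neutrophils and 6.35 UPM in early progenitors.

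For the lymphocyte receptors, Ccl21a was highest in endothelial-like cells (2295 UPM) and Ccl19 in mesenchymal cells (60.6 UPM), both ligands of Ccr7. Cxcl9 and Cxcl10, ligands of Cxcr3, were highest in endothelial (58.0 UPM) and pericyte/smooth muscle-like cells (135 UPM), and Cxcl16, the ligand of Cxcr6, in macrophages (225 UPM). Ccl25, the ligand of Ccr9, was low throughout, with 20.0 UPM in NK cells as its highest level. Cx3cl1, the ligand of Cx3cr1, was highest in endothelial cells at 26.9 UPM. Ccl20, the ligand of Ccr6, had 12 UMIs in all, too few for an order.

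Of 14 other chemokine receptor genes, 9 reached 20 UMIs in a class. Among their 53 pairs with a class 0 were more than 2-fold higher in HFD and 8 lower, against 2.03% and 2.57% of all pairs of genes and classes. These counts too describe the 2 libraries and are not a test. Ccrl2 was lower in monocytes, at 109 UPM in ND and 46.3 UPM in HFD (log2 ratio −1.24, −1.49 to −0.998), and in 3 further classes. Ackr3, a scavenging receptor, was lower in pericytes and smooth muscle cells (−1.70) on 15 and 8 UMIs.

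Genes whose level followed that of a receptor were sought among 11740 genes over 36 points, the 18 classes in each library. The points share their libraries, and the values of r (Pearson, log scale) are a description. Some of the genes found, Cd3g, Bcl11b, Retnlg, Cr2, Fcer2a, Klk1 and Klrd1, were themselves markers used to name the classes. Their likeness to a receptor led by such a class therefore follows in part from the naming. Cxcr6 was most like Icos (0.96), Cd3g and Bcl11b (both 0.94), genes of T cells. Ccr1 was most like Lilrb4a (0.92), Hacd4 and Atg7 (both 0.90), and Cxcr2 most like Il1f9, Retnlg (both 0.90) and Hdc (0.89). Ccr6 was most like H2-Eb2, Cr2 (both 0.89) and Fcer2a (0.85), and Ccr7 most like Gm8369 (0.90), Slamf6 (0.89) and Bach2 (0.88). Ccr9 was most like Gm21762 (0.90), Klk1 (0.89) and Cd300c (0.87), and Cxcr3 most like Gm33104, Klrd1 (both 0.88) and Klre1 (0.87). Ccr2 was most like Otulinl (0.85) and Ms4a6b (0.83), and Cx3cr1 most like Ptpro, Havcr2 (both 0.86) and Ms4a6c (0.85).

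The remaining genes lie apart from the group on chromosome 9 or far along it. Cxcr2 is at chr1:74153989-74161246 (plus strand), Ccr6 at chr17:8236043-8257141 (plus strand), Ccr7 at chr11:99144196-99155077 (minus strand) and Cxcr3 at chrX:101731535-101734269 (minus strand), none of which overlaps another gene. Cx3cr1 (chr9:119901616-120069879, minus strand) overlaps Gorasp1, Csrnp1 and Xirp1 on its own strand, so that its reads may be less certain.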

How the data were processed

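Periosteal cells of ND and HFD mice were pooled into 1 library for each diet. Cell Ranger 6.0.1 was used by the authors for the deposited UMI counts, with mm10 as the build (submitters' processing notes), and the values are whole numbers without normalization. Libraries held 48558889 (ND) and 49940976 (HFD) UMIs. The filters of the paper were kept. Cells were clustered with Seurat 5.3.0 (SCTransform, 30 principal components, resolution 0.5) without chemokine genes (38 of the 3000 features), then again within each lineage, and named from markers. The limits for leaving a cluster unnamed, which include a low median depth, were set after the clusters were seen. Scrublet (scanpy 1.11.5) called 0.149% and 0.370% of cells doublets, too few to have worked, and single cells were not removed, but 3 subclusters with most cells in the top 5% of its scores stayed unnamed. Levels have exact Poisson, shares Clopper-Pearson and ratios conditional binomial intervals (95%), and a count of 0 was taken to allow 3 counts. Ratios used 0.5 added to each count. No mouse could be assigned, so no test between diets was made. The members, gene lists and comparisons were chosen with earlier results of these data known. The text names the 9 members, their ligands, other receptors past 2-fold and the 3 genes most like each member, of which some are not reported here. Ratios and intervals were tested on simulated data. Alternatives are given in the closing section. Computations ran in R 4.3.3 and Python 3.11.15 (scipy 1.17.1).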

Additional observations from a re-analysis of the deposited data

Results flagged for a closer look

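A subcluster of 87 cells (32 ND, 55 HFD) that was left unnamed and entered no comparison held UMIs of Ccr2 and Ccr7. It scored highest for macrophages, with 6 of 6 markers detected, but its leading genes marked another class. It had none of Cxcr2, Ccr9 and Cxcr6. It was led by H2-Aa, Retnla, Mgl2 and Cd209a. Ccr2 was at 353 UPM in it, with a UMI in 70 cells, at 368 UPM in ND and 347 UPM in HFD. Ccr7 was at 61.3 UPM, all from 82 UMIs in 8 cells, at 96.1 UPM in ND and 45.0 UPM in HFD. Cx3cr1 and Ccr1 were at 38.1 and 52.3 UPM.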

How the results depend on the processing

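The leading class of each of the 9 genes was the same under every alternative run, and the number of genes with at least 50% of their level in it ranged from 3 (with 66% as the share) to 6 (cells thinned to 1000 UMIs). Over all alternatives the level of a gene in its leading class moved 14 times and 58 times did not, its share 10 and 62 times, and its diet ratio 8 and 73 times. The counts of pairs past 2-fold depended on the setting. With classes from the markers of each single cell 0 pairs were higher in HFD and 14 lower, and with cells thinned to 1000 UMIs 0 and 1. A minimum of 5 UMIs gave 13 higher and 20 lower pairs, a minimum of 50 UMIs 1 and 2, and a limit of 1.5-fold 7 and 17. Resolution 1, chemokine genes kept for clustering, removal of doublets, at least 200 genes and 1 added to counts changed neither count by more than 1.5 times, nor did leaving out subclusters with at least 80% of cells from 1 library, which, like removal of the top 5% of doublet scores, was chosen after seeing the data. Removal of doublets took out only 0.149% and 0.370% of cells, so that it could change little. The pairs behind a count could also change. Without the top 5% of doublet scores Ccr1 passed 2-fold in macrophages (−1.03), endothelial cells (−1.05) and mesenchymal cells (−1.01). So did Ccr7 in mesenchymal cells (1.77) and mature neutrophils (1.06). Ccr7 in plasmacytoid dendritic cells (0.01) was among the pairs that no longer did. Ccr1 kept 64 of its 132 ND UMIs in mesenchymal cells and 17 of its 46 HFD UMIs in endothelial cells. The cause of these changes was not tested. No paired analysis was possible because no barcode could be assigned to a mouse, and for the same reason no replicate could be left out. Depth limits the pairs with few UMIs, and the spread between mice is unknown.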
